A study of Homo sapiens with 6 samples.

Results

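The genes described here are chemokines that draw T cells and related lymphocytes: CXCL9, CXCL10, CXCL11, CXCL14, CXCL16, CX3CL1, CCL5, CCL15 and CCL28. Members were taken from probe sets that the platform annotation assigns to exactly 1 gene symbol, and where a gene has several they were selected on measured level, by keeping the probe set with the highest mean over all 6 arrays. This rule found 8 of the 9 named genes, among 18417 genes in all. Each of the 8 had a single such probe set, so the choice by mean level changed nothing, but the genes were put on the list with their differences between the groups known. CCL15 has no value of its own, because its only probe set also lists CCL14 and the CCL15-CCL14 readthrough.

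The study measured RNA from HT29, an established line of human colorectal adenocarcinoma cells, on Affymetrix arrays. In 3 arrays the cells carried a laminin α1 expression construct and in 3 arrays a control construct, and all were grown for 7 days. The design text gives 3 independent culture passages per group, and the sources used here give no number of cell clones, so the errors below are the spread between passages. Values are log2 expression levels after RMA, and every difference is laminin α1 minus control. LAMA1, the gene of the construct, differed by 0.09 (95% interval -0.05 to 0.24, limma adjusted p = 0.535), so it does not verify the labels, and the groups are arrays as labelled. Arrays resolve no single cells, so fewer cells expressing a gene and less RNA per cell cannot be told apart.

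Chemokines are small secreted proteins that steer leukocytes through G protein-coupled receptors. CXCL9, CXCL10 and CXCL11 are classic interferon-induced ligands of CXCR3, a receptor of activated T cells and natural killer cells, and they lie close together on chromosome 4. CXCL16 and CX3CL1 are made as membrane proteins with the chemokine domain on a mucin-like stalk, and the proteases ADAM10 and ADAM17 release them. CCL5 attracts T cells and monocytes through several CC receptors, CCL28 is a chemokine of mucosal epithelia that binds CCR10, and CXCL14 is made constitutively by many epithelia.

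The 250 bases before the annotated start are shown for the 3 CXCR3 ligands, because these neighbouring genes share interferon as an inducer but differed unequally between the groups. The sequences are from RefSeq (GRCh38.p14), read 5′ to 3′ on the gene's strand, which is the minus strand for all 3. They span chr4:76007510-76007759 for CXCL9, chr4:76023498-76023747 for CXCL10 and chr4:76036071-76036320 for CXCL11, and capitals mark matches to the searched motifs.
CXCL9: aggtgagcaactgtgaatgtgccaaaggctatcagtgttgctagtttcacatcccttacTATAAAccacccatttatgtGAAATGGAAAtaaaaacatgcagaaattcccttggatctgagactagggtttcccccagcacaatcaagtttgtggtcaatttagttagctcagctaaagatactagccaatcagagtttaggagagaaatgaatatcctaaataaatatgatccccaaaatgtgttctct
CXCL10: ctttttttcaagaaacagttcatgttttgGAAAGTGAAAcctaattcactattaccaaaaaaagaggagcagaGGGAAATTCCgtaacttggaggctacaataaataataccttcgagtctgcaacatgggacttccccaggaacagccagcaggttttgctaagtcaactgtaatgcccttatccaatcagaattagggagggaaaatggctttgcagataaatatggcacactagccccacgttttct
CXCL11: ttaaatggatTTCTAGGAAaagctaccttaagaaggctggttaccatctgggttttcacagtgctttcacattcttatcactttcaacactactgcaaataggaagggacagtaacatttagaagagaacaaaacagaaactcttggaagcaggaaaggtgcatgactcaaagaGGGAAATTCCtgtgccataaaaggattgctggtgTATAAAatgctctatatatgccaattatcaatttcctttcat

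Capitals in CXCL10 mark GAAAGTGAAA at bases -221 to -212, a match to the interferon-stimulated response element core, GAAA followed after any 2 bases by GAAA, and GGGAAATTCC at bases -177 to -168, a match to the kappa B pattern, GGG followed after any 3 bases by TTCC. CXCL11 held the same 10 bases GGGAAATTCC at -76 to -67, a match to the GAS pattern of TTC followed after any 3 bases by GAA (TTCTAGGAA at -240 to -232), and the TATA box letters TATAAA at -42 to -37. CXCL9 held an interferon element match, GAAATGGAAA at -171 to -162, and TATAAA at -191 to -186. The interferon element, GAS and kappa B patterns were searched on both strands and TATAAA on the gene's strand, and no matches overlapped in these 3 windows. Of 35116 promoters in the table, 3.02% held the interferon element, 6.57% GAS, 5.67% kappa B and 6.8% TATAAA. Only these letters were searched, so sites that depart from them were left unmarked. A match describes letters only and says nothing of binding in these cells. Among the other members the table holds CXCL14, CCL15 and CCL28 (2 entries), which brings the members with an entry to 6 of 9. CCL15 had a GAS match and TATAAA, and the windows of CXCL14 and CCL28 had no match to the 4 patterns.

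Levels of the T cell chemokines were higher in laminin α1 cells for CXCL10 and CCL5, and no other member passed the test in either direction. The members were listed with earlier results of these data known, so their count is a description. Of the 8 genes, 7 had a mean above the level filter, log2 5.50, the 25th percentile of all genes, and were tested. Among these 7, 2 rose and 0 fell at a limma adjusted p under 0.05, with p values adjusted over 13812 genes. Of all genes tested, 5.29% passed, 2.69% higher and 2.59% lower. The median difference of the 7 tested members was 0.17, against -0.01 over all genes tested.

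**Figure D1:**
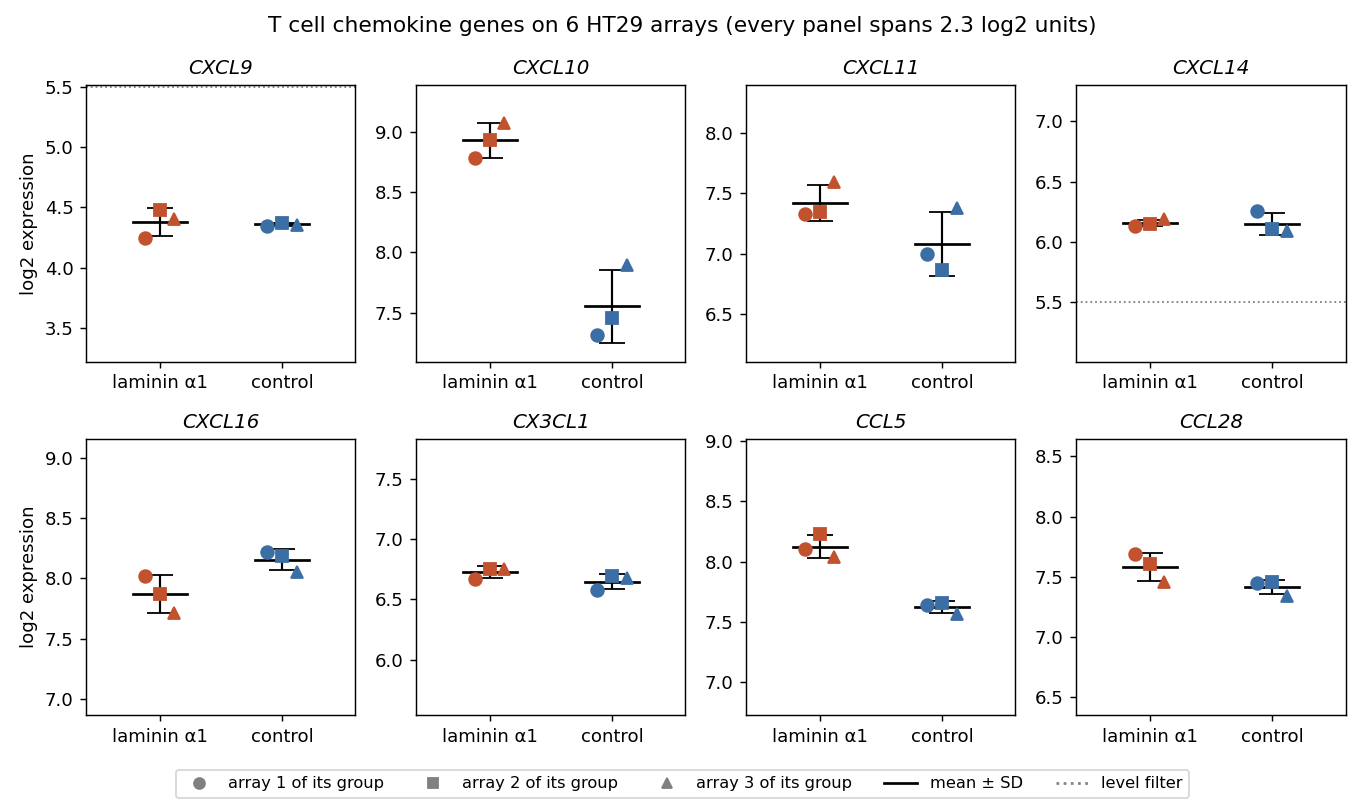
Each panel plots the log2 expression (vertical axis) of 1 gene in the 3 laminin α1 arrays (left) and the 3 control arrays (right), with mean and SD as bars and all panels on axes of equal span. The groups are far apart for CXCL10 and clearly separated for CCL5, and array 3 (triangles) is the highest of its group for CXCL10 and CXCL11 in both groups.

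CXCL10, the interferon-induced CXCR3 ligand also called IP-10, had levels of 8.78, 8.93 and 9.07 in the laminin α1 arrays, against 7.31, 7.45 and 7.89 in the control arrays. The lowest laminin α1 array lay 0.89 above the highest control array, a gap wider than the range of the laminin α1 arrays, 0.29, or of the control arrays, 0.58. Means were 8.93 ± 0.15 in laminin α1 and 7.55 ± 0.30 in control (SD, n = 3 each). CXCL10 rose by a log2 difference of 1.38 (SE 0.14, 95% interval 1.07 to 1.68), or 2.60-fold, with a limma adjusted p of 0.000223. This was the 28th largest difference in either direction and the 7th largest upward among the genes tested. The exact two-sided permutation p was 0.1, the smallest that 3 against 3 arrays allow. With each array left out in turn the difference stayed between 1.26 and 1.55, and the adjusted p between 3.96e-05 and 0.00191.

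CXCL11, which binds CXCR3 most strongly of its 3 ligands, had levels of 7.33, 7.34 and 7.59 in laminin α1 arrays, against 7.00, 6.87 and 7.38 in control arrays. The groups overlapped, since control array 3 lay above laminin α1 arrays 1 and 2. The difference was 0.34 (SE 0.13, 95% interval 0.06 to 0.62), with a limma adjusted p of 0.193 and an exact permutation p of 0.3. Without control array 3 it was 0.49, with a limma adjusted p of 0.0261, past the threshold.

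CXCL9, the third ligand of CXCR3 and the one most dependent on interferon-gamma, had levels of 4.25, 4.48 and 4.41 in laminin α1 arrays and 4.35, 4.37 and 4.36 in control arrays. All 6 values lay below the level filter of 5.50, so no test was made in the main comparison. When limma was run on unfiltered genes, CXCL9 differed by 0.02 (95% interval -0.14 to 0.18, adjusted p = 0.944). A difference at so low a level is not measured well on these arrays.

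The difference between CXCL10 and CXCL11 was also taken within each array, a comparison chosen after the values were seen. CXCL10 minus CXCL11 was 1.46, 1.59 and 1.48 in the laminin α1 arrays, against 0.31, 0.59 and 0.515 in the control arrays. The groups did not overlap, with means of 1.51 ± 0.07 in laminin α1 and 0.47 ± 0.14 in control (SD, n = 3 each; exact permutation p = 0.1, the smallest possible). The CXCL10 signal thus moved by 1.04 more than the CXCL11 signal on the log2 scale, while both genes were highest in array 3 of each group.

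CCL5, also called RANTES, had levels of 8.10, 8.23 and 8.04 in laminin α1 arrays, against 7.64, 7.66 and 7.57 in control arrays. The groups were separated by 0.38, which was wider than either group's own range, 0.19 in laminin α1 and 0.09 in control. CCL5 rose by 0.50 (SE 0.07, 95% interval 0.34 to 0.66), or 1.42-fold, with a limma adjusted p of 0.00217. Leaving out each array in turn gave differences of 0.45 to 0.54 and adjusted p values of 0.00164 to 0.0157.

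The 2 membrane-bound chemokines did not pass the test. CXCL16, the ligand of CXCR6, had levels of 8.02, 7.87 and 7.71 in laminin α1 arrays, against 8.22, 8.19 and 8.06 in control arrays. All laminin α1 values lay below all control values, by a margin of 0.03, and the difference was -0.29 (SE 0.09, 95% interval -0.48 to -0.09, limma adjusted p = 0.109). CXCL16 was the only tested member with a difference below 0, and without laminin α1 array 1 it was -0.36 with an adjusted p of 0.0395. CX3CL1, or fractalkine, the ligand of CX3CR1, had levels of 6.67, 6.75 and 6.75 in laminin α1 arrays and 6.58, 6.69 and 6.68 in control arrays. The groups overlapped, with a difference of 0.08 (95% interval -0.07 to 0.22, limma adjusted p = 0.635).

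The epithelial chemokines CCL28 and CXCL14 did not pass either. CCL28 had levels of 7.69, 7.60 and 7.46 in laminin α1 arrays, against 7.45, 7.45 and 7.34 in control arrays. The groups did not overlap, but the margin of 0.0038 was far below the spread within either group, and the difference was 0.17 (95% interval -0.0012 to 0.34, limma adjusted p = 0.304). CXCL14 had levels of 6.13, 6.15 and 6.19 in laminin α1 arrays and 6.25, 6.11 and 6.09 in control arrays. These groups overlapped, and the difference was 0.01 (95% interval -0.15 to 0.16, limma adjusted p = 0.974). CXCL14 thus had the smallest difference of the tested members.

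**Figure D2:**
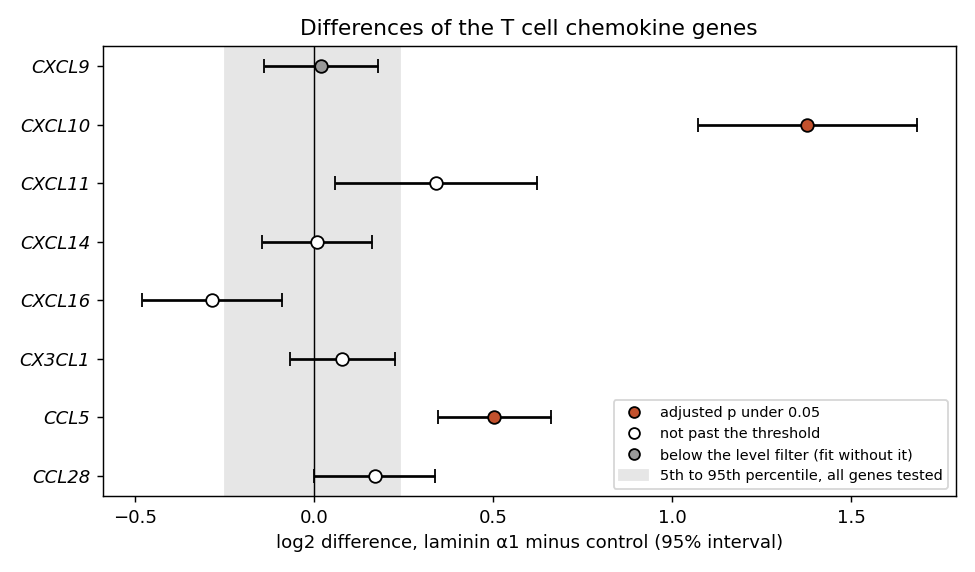
Log2 differences, laminin α1 minus control, with 95% intervals of the limma fit (horizontal axis) for the 8 genes (vertical axis), 3 arrays per group. CXCL10 at 1.38 and CCL5 at 0.50 are the filled points past the threshold, CXCL9 in grey lies below the level filter, and the shaded band spans the 5th to 95th percentile of all genes tested, -0.25 to 0.24.

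Across all tested members the groups did not overlap for 3 that were higher in laminin α1 (CXCL10, CCL5 and CCL28) and 1 that was lower (CXCL16), that is 4 of 7. Over all genes tested 21.6% did not overlap, 10.1% higher and 11.5% lower. Within the groups, 5 members placed array 3 at the same end in both groups. CXCL10 and CXCL11 were highest there, 0.14 and 0.17 above their laminin α1 means and 0.34 and 0.30 above their control means. CXCL16, CCL5 and CCL28 were lowest there, by -0.16, -0.08 and -0.13 against the laminin α1 means and by -0.10, -0.05 and -0.07 against the control means. Over all genes tested, the deviations of laminin α1 array 3 and control array 3 correlated at 0.53, so the pattern is not particular to the members. The labels give no reason why arrays of equal number would move together, and the part of this pattern in the differences was not tested.

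The genes next to CXCL10 and CCL5 were read as well, a comparison chosen after the values were seen. In RefSeq order (GRCh38.p14), taking protein-coding genes with a value on the array, CXCL10 was the only 1 of 9 neighbouring genes from NAAA to CCDC158 that passed the test. CXCL11 at 0.34 was the next largest difference, while NUP54, a nuclear pore protein, had -0.11 (limma adjusted p = 0.698), SDAD1 0.01 (adjusted p = 0.962) and SCARB2, a lysosomal receptor, -0.02 (adjusted p = 0.911). CXCL9, ART3 and CCDC158 were below the level filter. Around CCL5, from MMP28 to CCL23 on chromosome 17, CCL5 was likewise the only 1 of 9 that passed, and RDM1 had 0.16 (adjusted p = 0.390). HEATR9, LYZL6 and the chemokines CCL16 and CCL23 were below the level filter. Genes below the filter had no main test, so for them not passing says nothing.

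**Figure D3:**
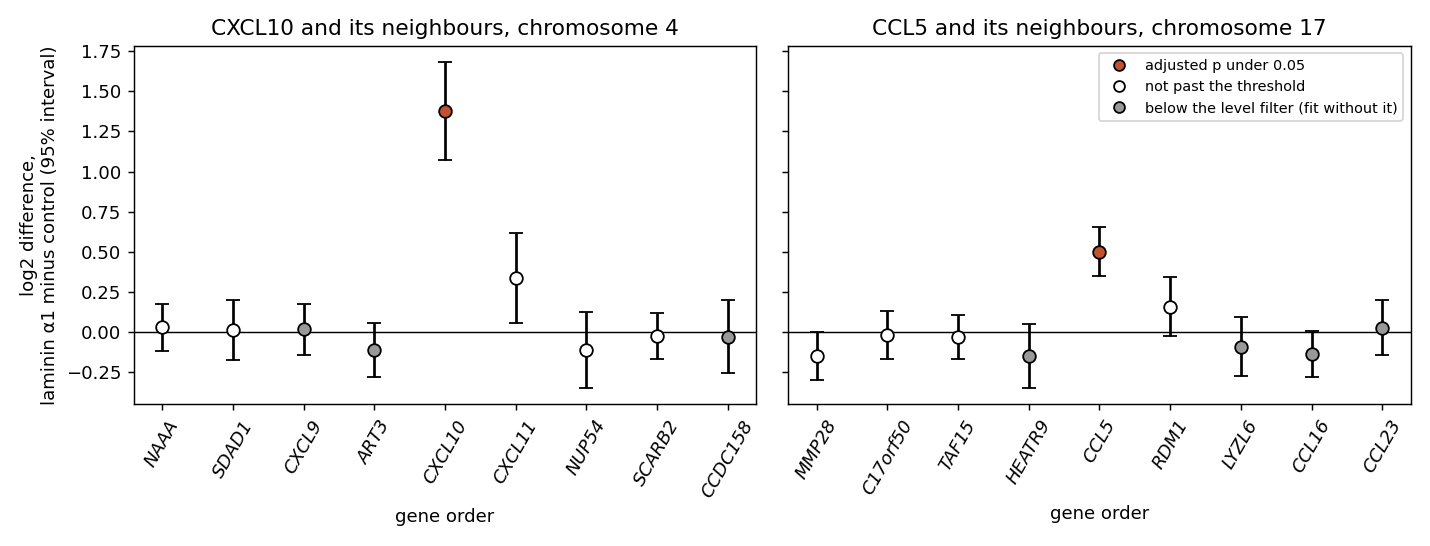
Log2 differences, laminin α1 minus control, with 95% intervals (vertical axis) for CXCL10 and CCL5 and their 4 neighbours on either side in gene order (horizontal axis), from the fit without the level filter. Points filled in colour passed the main test, and these are CXCL10 and CCL5 only, while grey points lay below the level filter and had no main test.

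The lists of other genes below were drawn up from general knowledge with earlier results known, and they are described by counts. Of 34 other chemokine ligands, 31 had a probe set of their own and 15 were tested, with a median difference of -0.04. Of these 15, 1 rose and 0 fell, near the 5.29% of all genes tested that passed. The 1 was CXCL8, the neutrophil chemokine, at 7.34 ± 0.11 in laminin α1 and 6.37 ± 0.16 in control (SD, n = 3 each), a difference of 0.98 (limma adjusted p = 0.000155). The other 16 ligands lay below the level filter, among them CXCL12, CXCL13, CCL2 and CCL20. CXCL1, another neutrophil chemokine, had a difference of 0.29 and did not pass (adjusted p = 0.0710).

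None of the receptors passed. Of 9 receptors of these chemokines 7 had a probe set of their own, and 5 of the 7, CXCR6, CX3CR1, CCR1, ACKR1 and ACKR2, lay below the level filter. CXCR3 had means of 6.69 ± 0.04 in laminin α1 and 6.69 ± 0.03 in control, with a difference of -0.0032 (adjusted p = 0.988). CCR10, the receptor of CCL28, had 6.30 ± 0.04 in laminin α1 and 6.34 ± 0.09 in control. Both receptors were thus within the spread of their arrays.

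Of 5 genes that encode proteases of chemokines or regulators of such proteases, 0 rose and 1 fell. Of all genes tested, 2.69% rose and 2.59% fell. DPP4, a surface peptidase that removes the first residues of CXCL10 and related chemokines, had levels of 7.25 ± 0.12 in laminin α1 and 8.42 ± 0.08 in control (SD, n = 3 each), a difference of -1.17 (limma adjusted p = 1.55e-05). The sheddases ADAM10 and ADAM17 differed by -0.03 and -0.0024, TIMP3 by 0.0018, and RHBDF2, the iRhom protein that supports ADAM17, by 0.17 (adjusted p = 0.241). DPP4 was therefore the member of this list that moved, and its difference was opposite in sign to that of CXCL10.

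Interferon signalling genes passed at a share near that of all genes tested, 5.29%. Of 18 tested genes 1 rose and 0 fell, with a median difference of 0.02. IRF9, the DNA-binding subunit of the complex formed after type I interferon, had 8.90 ± 0.22 in laminin α1 and 8.44 ± 0.06 in control, a difference of 0.46 (limma adjusted p = 0.0269). The receptor subunits IFNGR1, IFNGR2 and IFNAR1 differed by -0.12, 0.03 and 0.02. IRF1 and IRF7, transcription factors that act on interferon response elements, had differences of 0.28 and 0.31 with groups that did not overlap, and neither passed (adjusted p = 0.140 and 0.133). JAK1 had groups that did not overlap in the lower direction, with a difference of -0.14 (adjusted p = 0.308). In this list 4 of the 18 did not overlap higher and 1 lower, against 10.1% and 11.5% of all genes tested. The call of IRF9 was lost without laminin α1 array 2 or without any 1 of the control arrays, with adjusted p values of 0.0571 to 0.0937.

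Genes of the sensing of viral RNA and cytosolic DNA, sensors and others, numbered 10, with a median difference of 0.22. Of these 10, 2 rose and 0 fell, against 2.69% and 2.59% of all genes tested. IFIH1, the RNA sensor MDA5, rose by 0.44 (limma adjusted p = 0.0264), and CGAS, the cytosolic DNA sensor, rose by 0.37 (adjusted p = 0.0212). RIGI, the RNA sensor RIG-I, had 0.41 and DHX58 0.38, and neither passed (adjusted p = 0.0730 and 0.0554). Both calls depended on single arrays. IFIH1 was lost without laminin α1 array 1 or any 1 of the control arrays (adjusted p = 0.0780 to 0.0930), and CGAS without laminin α1 array 1 or 2 or any 1 of the control arrays (adjusted p = 0.0510 to 0.0910), so the count fell to 0 in 4 of these cases and to 1 without laminin α1 array 2.

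Genes that usually rise with CXCL9, CXCL10 and CXCL11 under interferon-gamma numbered 11 among those tested, and their median difference was 0.26. Of these 11, 4 rose and 0 fell, against 2.69% and 2.59% of all genes tested. TAP1, a peptide transporter, had 8.45 ± 0.28 in laminin α1 and 7.70 ± 0.12 in control, a difference of 0.76 (limma adjusted p = 0.00682). PSMB9, an immunoproteasome subunit, rose by 0.59 (adjusted p = 0.00514), GBP2, a guanylate-binding protein, by 0.48 (adjusted p = 0.00757) and GBP4 by 0.66 (adjusted p = 0.0110). The control mean of GBP4, 5.44, lay below the level filter, and its call was lost without control array 1 (adjusted p = 0.0551). IDO1, UBD, GBP5 and CD274, which interferon-gamma also induces, lay below the level filter like CXCL9, while B2M, IFI30 and SOD2 differed by 0.07, -0.0089 and -0.0002.

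Of the NF-kB list 0 of 17 tested genes passed in either direction in limma, and the median difference was 0.03. At an unadjusted p under 0.05, 2 of the 17 were past, against 16.7% of all genes tested. They were IKBKE, a kinase of the NF-kB and interferon pathways, with a difference of 0.23 (adjusted p = 0.105), and NFKBIE, an NF-kB inhibitor, with 0.18 (adjusted p = 0.213). By the same unadjusted measure 4 of 7 members, 7 of 11 interferon-gamma genes, 6 of 10 sensing genes and 4 of 18 interferon signalling genes were past. In further lists 3 of 15 other ligands, 2 of 5 processing genes, 4 of 12 epithelial markers and 0 of 2 receptors were past. NFKBIA, the inhibitor that NF-kB itself induces, differed by 0.17 (adjusted p = 0.351) and TNFAIP3, a further NF-kB target, by 0.14 (adjusted p = 0.307). RELA and NFKB1, the subunits of the main dimer, differed by 0.05 and 0.07. The groups did not overlap for 4 of the 17, all higher, against 10.1% of all genes tested.

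**Figure D4:**
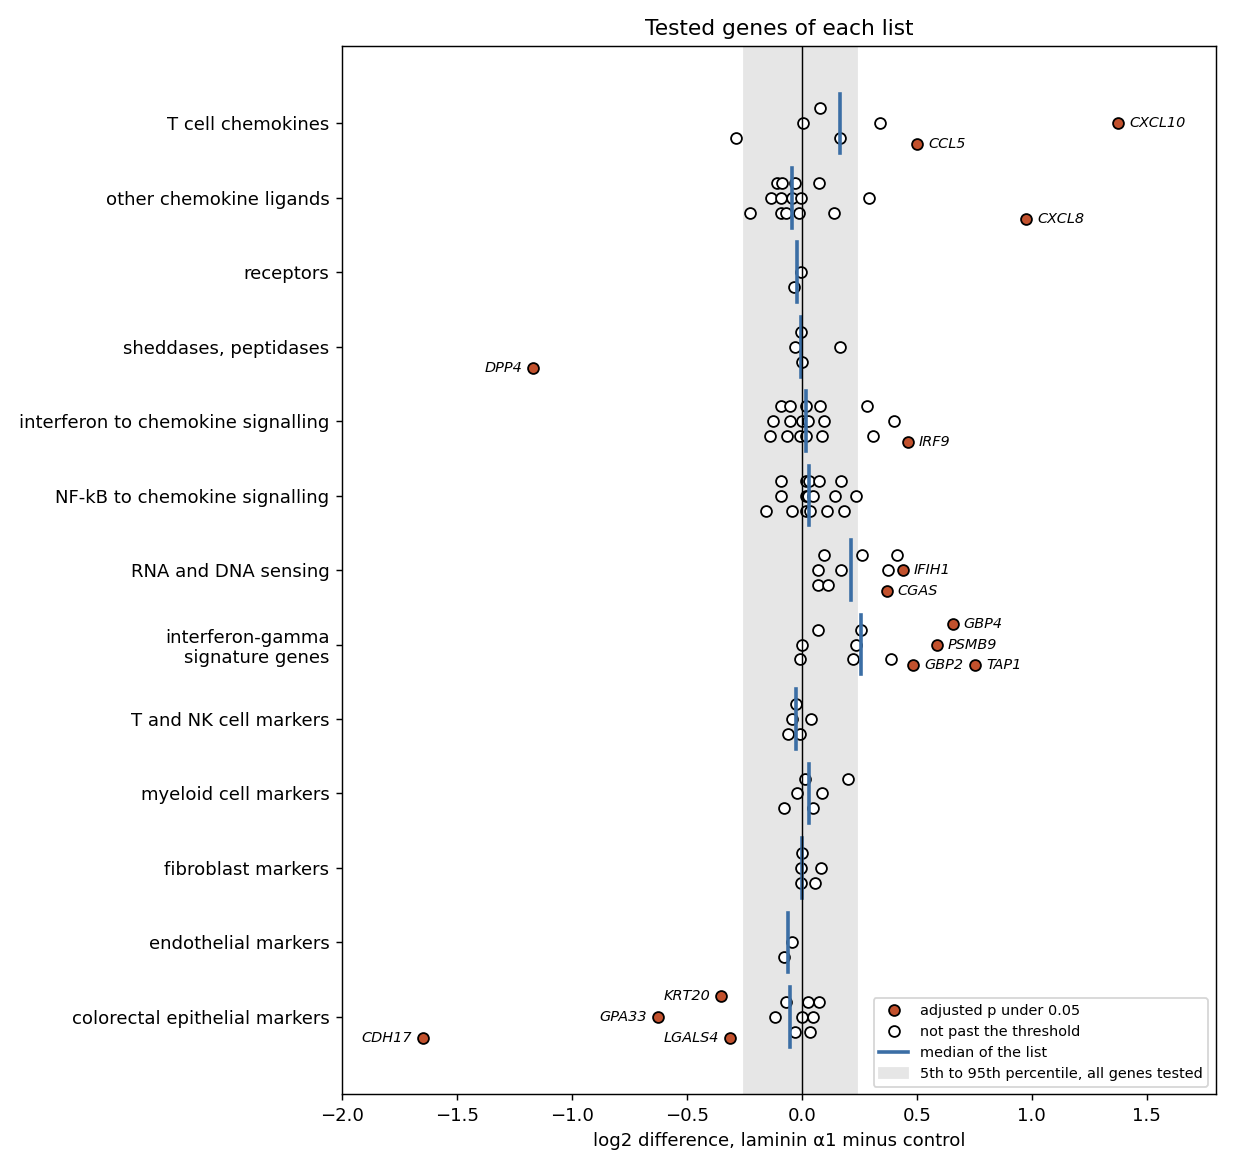
Each point is 1 tested gene, placed by its log2 difference, laminin α1 minus control (horizontal axis), in the list named on the vertical axis, with the median of the list as a bar and the 5th to 95th percentile of all genes tested as the shaded band. Filled, named points passed the limma test, and CXCL10 lies farthest to the right and CDH17 farthest to the left among the genes plotted.

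Markers of other cells were checked because chemokines are also made by leukocytes and stroma. Of 12 T and natural killer cell markers 11 had a probe set, 6 of them below the level filter, including CD3D, CD3E, CD3G, CD2 and CD8A, and 0 of 5 tested passed in limma. Their summed log2 level was 62.7 to 64.4 in laminin α1 arrays and 63.4 to 64.1 in control arrays. Myeloid markers had 0 of 6 tested past, with sums of 71.1 to 71.7 in laminin α1 and 70.9 to 71.1 in control. CSF1R, CD163, AIF1, C1QA and FCGR3A lay below the filter, while LYZ, which intestinal secretory cells also make, was at 13.20 ± 0.01 in laminin α1 and 13.15 ± 0.07 in control. Fibroblast markers had 0 of 5 and endothelial markers 0 of 2 tested past, with DCN, LUM, FAP, PECAM1, VWF and KDR below the filter. Not all markers of these lists were so low. Means over all 6 arrays were 7.92 for CD7, 7.90 for TYROBP, 7.75 for CD68, 7.37 for COL1A1 and 7.09 for CLDN5. At an unadjusted p under 0.05, 1 of these 18 tested markers was past, against 16.7% of all genes tested. It was the monocyte receptor CD14, at 7.13 ± 0.16 in laminin α1 and 6.93 ± 0.07 in control (SD, n = 3 each), with groups that did not overlap and a limma adjusted p of 0.284. The groups of TYROBP did not overlap either, but in the lower direction, with a difference of -0.08 (limma adjusted p = 0.632). Over all genes tested 21.6% did not overlap.

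Defining markers of colorectal epithelium were checked against the label. EPCAM had 11.99 ± 0.06 in laminin α1 and 12.11 ± 0.06 in control, KRT8 had 12.95 ± 0.05 in laminin α1 and 12.90 ± 0.11 in control, and all 12 markers of the list were above the level filter (SD, n = 3 each). Among 12 epithelial markers 0 rose and 4 fell in limma, against 2.69% and 2.59% of all genes tested. CDH17, the intestinal cadherin, had 4.93 ± 0.12 in laminin α1 and 6.58 ± 0.05 in control (adjusted p = 1.59e-06), with its laminin α1 mean below the level filter. GPA33 fell by 0.63, KRT20 by 0.35 and LGALS4 by 0.31. Without laminin α1 array 2 or control array 2 the calls of KRT20 and LGALS4 were lost (adjusted p = 0.0599 to 0.101), and the count was then 2. LGALS4 was also lost without control array 1 (adjusted p = 0.0977). These markers were lower in the arrays in which CXCL10 and CCL5 were higher, and the part of one in the other was not tested.

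Of the other 13811 genes tested, those with levels most like CXCL10 were found by distance. Each gene was centred on its own control mean and the Euclidean distance over the 6 arrays was taken, in log2 units. The 5 closest were LGR5, an intestinal stem cell receptor, at 0.42, SBSPON, a secreted matrix protein, at 0.42, VTRNA1-2, a vault RNA, at 0.43, FRY at 0.47 and IGFL4 at 0.49. VTRNA1-2 had 8.30, 8.23 and 8.24 in laminin α1 arrays, against 6.85, 7.01 and 7.39 in control arrays. Control array 3 was the highest control for it as for CXCL10, but its highest laminin α1 array was array 1, unlike that of CXCL10. Close family copies make the value of VTRNA1-2 uncertain. LGR5 had 9.80, 9.86 and 10.11 in laminin α1 arrays, against 8.50, 8.59 and 8.55 in control arrays. Array 3 was its highest in laminin α1 as for CXCL10, but its highest control was array 2, unlike that of CXCL10. None of these 5 genes encodes a chemokine, and a short distance is a description over 6 arrays of 2 groups.

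**Figure D5:**
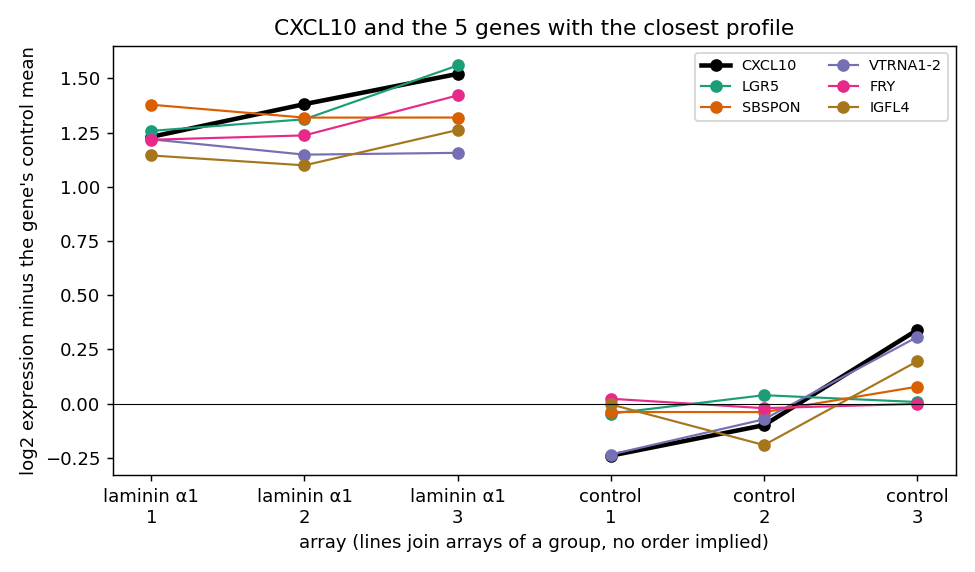
Log2 expression minus the gene's own control mean (vertical axis) in the 3 laminin α1 and 3 control arrays (horizontal axis) for CXCL10, drawn thick, and the 5 genes closest to it. The laminin α1 values of all 6 genes lie well above their control values, and for CXCL10 every laminin α1 array is at least 1.23 above the control mean while control arrays lie within 0.34 of it.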

How the data were processed

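RNA of 6 HT29 arrays was measured, 3 with a laminin α1 expression construct and 3 with a control construct. The deposited values are log2 expression levels per probe set, for which the submitters' processing notes name RMA and Affymetrix Expression Console 1.1. RMA corrects background, gives the arrays nearly 1 distribution and summarises probes, which hides any shift common to all genes. The scale is taken from those notes and from the values, which ran from 2.40 to 13.9 with array medians of 6.45 to 6.49. The labels name the dye Cy3, but each probe set has a single value per array, which was treated as 1 channel. The direction of every difference is set by the group labels. The sources used here give neither a genome build nor a background measure, and the number of arrays limits the precision.

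Of 33297 probe sets the platform annotation listed 1 symbol for 19460, several for 1754 and none for 12083. The brightest probe set over all 6 arrays was kept per gene, 18417 in all, and the 13812 above the 25th percentile of mean level (log2 5.50) were tested. Symbols were updated through Entrez identifiers with RefSeq (GRCh38.p14) to match the gene lists.

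Differences, laminin α1 minus control, came from limma 3.58.1 (lmFit, then eBayes) run in R 4.3.3 with group as the single term. The p values were adjusted by Benjamini-Hochberg over all genes tested, called under 0.05, and the 95% intervals come from the same fit. Members under the filter were read from the fit without it.

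The members, the gene lists and the motifs were chosen with earlier results of these data known. The genes named were all members, LAMA1, up to 4 genes past the threshold in each list, the receptors, and the 5 genes closest to CXCL10. Others were named after their values were seen. Promoters (250 bases before the start) came from RefSeq, and figures were drawn with matplotlib 3.10.9.

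The settings varied were the level filter (absent, or at the 50th percentile), the probe sets (each tested separately, or averaged per gene), the scaling (medians aligned, or quantiles normalized again), the variance model (trended and robust), array weights, a block for replicate number, the omission of each array in turn, and a threshold of 0.01.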

Additional observations from a re-analysis of the deposited data

How the results depend on the processing

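CXCL10 and CCL5 kept their direction and stayed past the threshold in all 15 alternatives that gave them a value, with differences of 1.26 to 1.55 and 0.45 to 0.55 and adjusted p values up to 0.00493 and 0.0157. The counts of all genes and of members moved by over 1.5 times in the settings that follow. Array weights gave 4691 genes, with 4 members higher and 1 lower (CXCL11 at adjusted p = 0.000822, CCL28 at 0.0182 and CXCL16 at 0.000343 were added). The weights ran from 0.317 for laminin α1 array 1 to 10.7 for control array 2, and limma reported that they had not converged. With the replicate number as a block, 1596 genes passed, with 3 members higher and 1 lower (CXCL11 at adjusted p = 0.0133 and CXCL16 at 0.0163 were added). The deviations of equally numbered arrays correlated across genes at 0.39, 0.02 and 0.53, and those of unequally numbered arrays at -0.49 to 0.16. Laminin α1 arrays 1 and 3 thus correlated best with the control array of equal number. Laminin α1 array 2 correlated best with control array 1 (0.16). The labels do not say whether the numbers mark pairs. An adjusted p under 0.01 left 393 genes and the same count of members, 2 higher. Leaving out 1 array gave 407 to 1214 genes, the lowest without control array 2, the highest without laminin α1 array 3, and 429 without laminin α1 array 2. It gave 2 to 3 members higher and 0 to 1 lower. With all probe sets tested separately IRF9, IFIH1, CGAS, GBP4 and LGALS4 did not pass (adjusted p = 0.0655 to 0.107). CXCL9 stayed below every level filter, and CXCL14 and CX3CL1 below the filter at the 50th percentile, so those settings gave them no value. CXCL8, GBP2, GBP4, CDH17 and GPA33 also lay below the filter at the 50th percentile. The counts there were 0 other ligands higher, 2 interferon-gamma genes higher and 2 epithelial markers lower. The cause of these changes was not tested. No named gene that passed the threshold changed sign.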

Other observations

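Probe set 8014349, the only one that lists CCL15, also lists CCL14 and their readthrough and is assigned to none of them here. Its log2 levels were 7.36, 7.39 and 7.38 in laminin α1 arrays, against 7.57, 7.68 and 7.68 in control arrays. The groups did not overlap and the difference was -0.26 (95% interval -0.40 to -0.12), but it did not pass in the limma fit over all probe sets (adjusted p = 0.0956).

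Probe set 8074606, listed with USP18, a brake on interferon signalling, and the pseudogene USP41P, had 9.59, 9.14 and 9.09 in laminin α1 arrays, against 8.66, 8.61 and 8.40 in control arrays. The difference was 0.72, again short of the threshold (adjusted p = 0.0587). The probe set of USP18 alone had 0.40 in the main comparison (limma adjusted p = 0.107). A probe set shared by GBP1, GBP3 and the pseudogene GBP1P1 had a difference of 0.22 (adjusted p = 0.338).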
